A study of Mus musculus with 8 samples.

Results

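Chromatin regions that were open in dentate granule neurons and far less open in CA1 pyramidal neurons were collected from the mouse hippocampus, and 4258 of 154785 regions met the definition. The 154785 regions were merged ATAC peaks with a peak in each of the 4 libraries. A region entered the set when it held at least 50 transposition cuts in granule nuclei and when its accessibility, in cuts scaled to 1000000 cuts with 1 cut added (CPM), was at least 4 times that of CA1 nuclei in the pooled libraries of each diet separately. Granule nuclei were gated by RNA on at least 3 UMIs of Prox1 with Slc17a7 present and Gad2 at most 1 UMI. CA1 nuclei had at least 3 of the 6 genes Fibcd1, Wfs1, Wnt2, Pou3f1, Gm2115 and Gm10754, with Slc17a7 present and Prox1 and Gad2 at most 1 UMI each. The granule and CA1 accessibility of these regions therefore chose them, and the difference between granule and CA1 is given below as a description without a test.

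The libraries came from hippocampal nuclei of male C57BL/6J wild-type pups at postnatal day 21, profiled by single-nucleus multiome sequencing, which reads RNA and ATAC in the same nucleus. Dams were fed folic acid (FA) at 2 mg/kg in the MF group or 20 mg/kg in the HF group before mating, while pregnant and while nursing. Each group had 2 libraries, named MF1, MF2, HF1 and HF2, which the study describes as biological replicates, and the number of pups in a library was not stated. Tests between diets on library sums measure the spread between these libraries. The other tests had library as a block and measure how far differences within a library vary from library to library.

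Granule neurons of the dentate gyrus receive cortical input and send mossy fibres to CA3, whereas CA1 pyramidal neurons form the main output of the hippocampus. Both are glutamatergic, but granule neurons depend on the homeobox factor PROX1 and continue to be born after birth. Regulatory elements such as enhancers are cut by the ATAC transposase when nucleosomes are displaced, so they mark the sequences through which transcription factors set a cell type apart. Transcription factors of the NEUROD family, which promote neuronal differentiation, bind E-boxes, short sequences that begin with CA and end with TG.

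The members are shown first by sequence. Below are the central 300 bases of the member with the highest granule CPM at the 5 genes that followed Prox1 in number of members, shown because members gathered at these loci. Of these, Trp53i11 and Ttc23l were 2 of 6 genes tied at 4 members, taken by their summed granule CPM. Bases are from the plus strand of GRCm38 (mm10), and capitals mark CAGATG on either strand, the E-box preferred by NEUROD factors.
Paqr3 member (chr5:97162715-97163014): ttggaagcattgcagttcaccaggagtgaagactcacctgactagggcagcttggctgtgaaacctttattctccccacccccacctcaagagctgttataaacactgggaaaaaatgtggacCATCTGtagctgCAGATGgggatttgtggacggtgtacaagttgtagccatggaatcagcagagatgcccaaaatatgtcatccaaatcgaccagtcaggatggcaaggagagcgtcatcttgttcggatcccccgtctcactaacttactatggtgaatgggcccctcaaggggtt
Neurod1 member (chr2:79379105-79379404): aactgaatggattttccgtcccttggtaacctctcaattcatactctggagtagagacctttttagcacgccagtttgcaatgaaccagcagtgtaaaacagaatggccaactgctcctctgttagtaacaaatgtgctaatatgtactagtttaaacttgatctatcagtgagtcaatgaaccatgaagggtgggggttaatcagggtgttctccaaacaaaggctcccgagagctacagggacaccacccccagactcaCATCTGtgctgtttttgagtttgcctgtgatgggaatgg
Mamdc2 member (chr19:23515526-23515825): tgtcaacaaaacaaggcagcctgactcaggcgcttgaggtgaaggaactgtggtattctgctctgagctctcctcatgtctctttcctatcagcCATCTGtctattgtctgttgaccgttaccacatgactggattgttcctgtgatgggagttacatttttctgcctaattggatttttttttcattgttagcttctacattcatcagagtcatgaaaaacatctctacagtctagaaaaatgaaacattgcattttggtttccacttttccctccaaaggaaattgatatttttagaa
Trp53i11 member (chr2:93227800-93228099): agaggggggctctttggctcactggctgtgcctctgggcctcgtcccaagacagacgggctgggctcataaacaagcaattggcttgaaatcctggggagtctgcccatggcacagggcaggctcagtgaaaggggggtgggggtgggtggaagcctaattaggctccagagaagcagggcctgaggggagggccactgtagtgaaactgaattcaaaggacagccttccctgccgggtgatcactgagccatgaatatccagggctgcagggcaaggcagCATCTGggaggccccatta
Ttc23l member (chr15:10609114-10609413): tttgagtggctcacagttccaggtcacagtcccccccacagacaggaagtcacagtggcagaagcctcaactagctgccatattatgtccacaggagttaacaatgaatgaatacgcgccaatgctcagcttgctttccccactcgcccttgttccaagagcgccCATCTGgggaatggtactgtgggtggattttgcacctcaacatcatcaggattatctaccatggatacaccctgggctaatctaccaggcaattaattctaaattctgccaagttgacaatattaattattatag
The Paqr3 window held 2 of these E-boxes and each of the other 4 windows held 1. Such a match describes the letters of the window and not a bound site. The E-box was also common outside the members. In the longer windows searched further on, CAGATG occurred in 52.7% of members and 46.3% of all 154785 regions. Within intronic and intergenic regions of 40 to 45% GC, these shares were 52.9% and 51.4%. The 5 windows therefore do not show that this E-box sets members apart.

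The 4 libraries (MF1, MF2, HF1, HF2) held 418, 289, 416 and 413 granule nuclei and 247, 178, 225 and 222 CA1 nuclei. Their cuts summed to 8468431 to 11249890 per library in granule and 6456186 to 7359628 in CA1 nuclei. Prox1 RNA, a gate gene, was 424 ± 21.6 RNA CPM, UMIs scaled to 1000000 per library, in granule and 8.77 ± 1.62 in CA1 nuclei (SD, n = 4 libraries). Among genes the gates did not use, all 25 of 25 genes of a granule list were higher in granule nuclei by edgeR's quasi-likelihood test, beside 19.4% of all genes tested, and the CA1 gene Mpped1 (145 against 28.4 RNA CPM) was higher in CA1. These lists were chosen with results of these data known and are no independent support for the gates. RNA of other cells was also present. The summed level of 7 glial markers was 132 to 214 RNA CPM in granule and 66.5 to 102 in CA1 libraries, none of the 7 was at 0, and all 7 were higher in granule nuclei. The oligodendrocyte marker Mog stood at 58.4 ± 14.2 RNA CPM in granule, 17.5 ± 5.20 in CA1 and 1007 ± 202 in oligodendrocyte nuclei. Prox1 RNA itself was present in oligodendrocyte nuclei, at 191 ± 15.6 RNA CPM. Without nuclei that held 2 or more UMIs of these markers, 3826 of the 4258 members (89.9%) met the rule again, a setting chosen after seeing the data. A further setting left out nuclei that held 2 or more genes of any full list of 6 markers per glial type. It kept 21 to 37 granule nuclei per library, with 336908 to 689776 cuts. There 222 regions met the rule and 113 of them were members (2.65% of the 4258). The rule's floor on granule cuts was not lowered for this depth, so members could fail it through depth alone. The 2.65% therefore does not show whether members depend on nuclei with glial RNA. Libraries shared 8 to 20 barcodes per pair, at most 0.690% of the smaller library.

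Members had a median of 215 cuts in granule nuclei (50 to 1778) and 18 in CA1 nuclei (0 to 182), and 11 of them had no cut in CA1. Within each of the 4 libraries, 4256 had a higher CPM in granule than in CA1 nuclei. In each, 4174 (98.0%) were at least 2 times higher and 1833 (43.0%) at least 4 times higher. Over all shared regions these shares were 27.7%, 6.02% and 1.19%. Leaving out each library in turn, 1900 members (44.6%) met the rule every time. The rule pooled these same cuts, so the counts per library were largely set by that choice and are no independent support. The threshold fell within a continuous range. The 5 members nearest to it, which lay nearest to the starts of Syvn1, Mbd2, Kmo, Togaram1 and Epha3, had a smaller ratio that rounded to 4.0 and held 158 to 445 granule cuts. The 5 regions just outside, nearest to Cdh11, Olfml2b, Mgst2, Grm3 and Syne1, also rounded to 4.0 and held 156 to 1396 cuts.

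The members were also examined in nuclei that the rule did not use. Held-out granule nuclei carried 2 UMIs of Prox1, one below the gate, and held-out CA1 nuclei carried 2 of the 6 CA1 genes and no Prox1. Over the members, the ratio of held-out granule to held-out CA1 CPM had a median of 4.26, against 0.977 over all shared regions. It was at least 1 in 4223 members (99.2%) and at least 4 in 2294 (53.9%), and 3.46% of all shared regions reached 4. These nuclei came from the same libraries as the others.

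Members lay away from promoters. Intergenic sequence held 2155 members (50.6%) and introns 1927 (45.3%), against 36.8% and 48.1% of all shared regions. Only 25 members (0.587%) were centred within 1 kb of a transcription start, against 8.52% of shared regions. The median distance to the nearest protein-coding start was 100 kb, compared with 43.1 kb, and 2133 members were more than 100 kb from any such start. Their GC content was lower, with a median of 43.4% against 47.2% in the central 500 bases. The few promoter members included those of Prox1, Dsp, Trpc6, Tdo2 and Zic1.

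Motif content was compared over all shared regions and then at matched position and base composition. Both strands of the central 500 bases were searched. The E-box CAGATG occurred in 52.7% of members and 46.3% of all shared regions, and the homeobox core TAATTA in 21.1% and 13.8%. The E-box CAGCTG was less frequent in members (26.4% against 32.7%), as was TGANTCA, the pattern searched as AP-1 (14.9% against 19.6%). So were the CTCF core (1.24% against 4.30%) and the GC box GGGCGG (5.21% against 16.9%). The AP-1 pattern left its middle base open, so its shares describe the pattern and not AP-1 sites. Matches of different motifs were allowed to overlap. Within intronic and intergenic regions of 40 to 45% GC, the share of CAGATG was 52.9% in 1296 members and 51.4% in 34297 regions, and that of TAATTA was 21.8% and 19.5%. In that band the AP-1 pattern occurred in 15.4% of members and 23.4% of regions. CTCF occurred in 1.16% and 4.83%, and the GC box in 3.40% and 4.57%. The plot of motif shares includes the members called between granule stages, described further on.

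**Figure D1:**
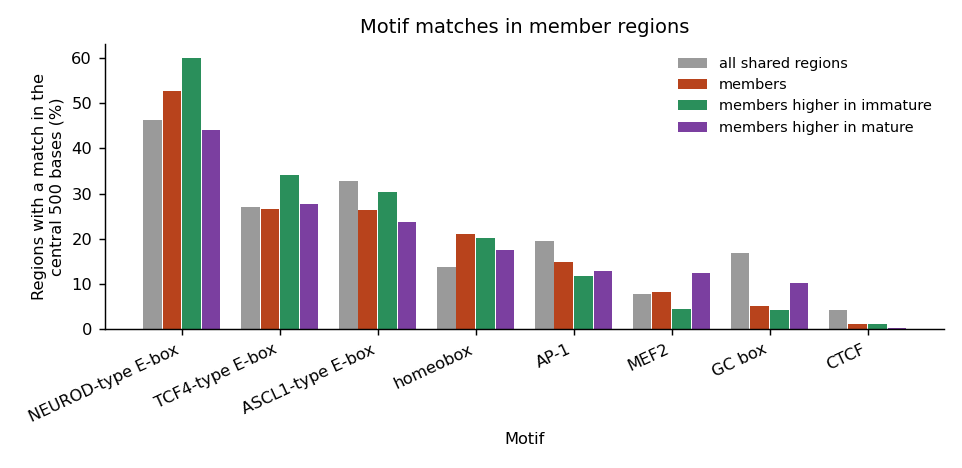
Bars give the share of regions (%) with a match in the central 500 bases for 8 motifs, in all 154785 shared regions, the 4258 members, and the members higher in immature (466) or mature (336) granule nuclei. CTCF and GC box bars of members are low, and the NEUROD-type E-box bar is highest (60.1%) in members higher in immature nuclei. The groups are not matched for position or GC.

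Prox1 had the most members of any gene. Its RNA gated both groups of nuclei, so its place as first locus is not independent of the gates. Genes were assigned by the nearest protein-coding start within 100 kb, which placed 2125 members at 1764 genes, 1474 of them with 1 member. At Prox1 there were 12, from 93.9 kb downstream to 69.4 kb upstream of its start, and 4 lay in the gene body or at its promoter. The promoter member (chr1:190170237-190171172) had 28.2, 23.6, 22.2 and 23.0 CPM in MF1, MF2, HF1 and HF2 granule nuclei, and 3.55, 2.17, 4.13 and 6.66 CPM in CA1. Other nuclei had this promoter open too, with 17.7 CPM in inhibitory, 23.2 CPM in astrocyte and 29.7 CPM in oligodendrocyte nuclei. A downstream intergenic member (chr1:190076332-190077238) was almost as open in granule nuclei, at 19.5, 24.8, 19.6 and 21.9 CPM, and stood at 8.97 CPM in astrocytes and 4.13 CPM in oligodendrocytes. The widest ratio among the 12 was in an intronic member 2.70 kb into the gene (chr1:190167542-190168478), with 6.31 to 7.96 CPM in granule libraries and 0 to 0.408 CPM in CA1 libraries. At each of the 12 members the highest CA1 library stayed below the lowest granule library, an order that the rule favours.

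**Figure D2:**
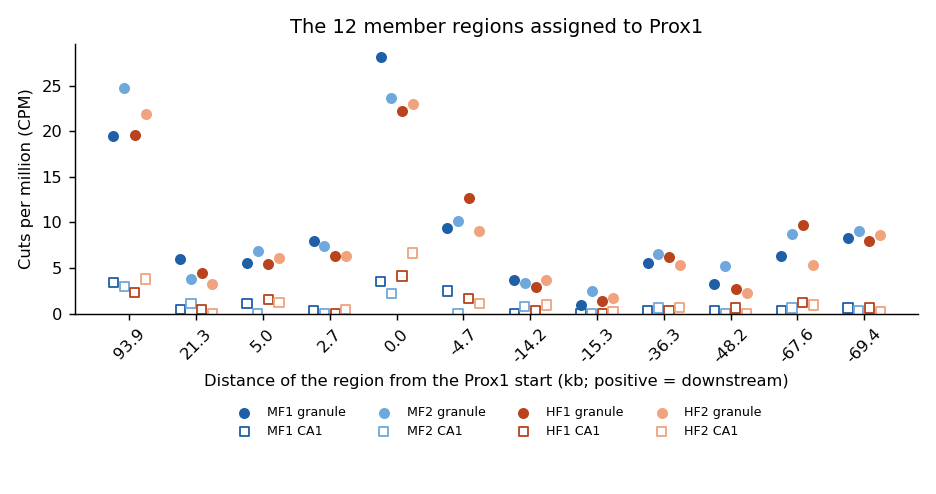
Each column is 1 of the 12 members assigned to Prox1, a gate gene, placed in order by its distance from the Prox1 start (kb), with CPM on the vertical axis. Filled circles are granule and open squares CA1 nuclei of the 4 libraries; all granule points lie above the CA1 points, and the promoter and the member 93.9 kb downstream are the most open.

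Neurod1, a proneural factor required for granule neurons, had 5 members, all within introns of its neighbour Cerkl, 12.3 to 85.8 kb downstream of the Neurod1 start. The most open of them (chr2:79378791-79379718, the Neurod1 sequence above) had 11.4, 10.4, 11.4 and 14.3 CPM in granule libraries and 0.153 to 1.90 CPM in CA1 libraries. Neurod1 RNA was 31.1 ± 9.58 RNA CPM in granule and 8.61 ± 3.15 in CA1 nuclei, a log2 fold change of 1.69 (SE 0.14, edgeR FDR 5.80e-09). Cerkl RNA was also higher in granule nuclei, by 0.85 on the log2 scale (SE 0.15, edgeR FDR 0.000148). Neurod2, a related factor, had 1 member 56.6 kb away in an intron of Cdk12.

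Paqr3, which encodes a Golgi protein, had 6 members, all intergenic and 18.3 to 83.9 kb upstream. The most open (chr5:97162397-97163331, sequence above) had 12.7, 14.1, 10.9 and 11.7 CPM in granule libraries. Paqr3 RNA was 31.4 ± 5.31 against 22.3 ± 1.33 RNA CPM, a log2 fold change of 0.36 (SE 0.11, edgeR FDR 0.0107). With similar log2 values, Paqr3 RNA missed the threshold in DESeq2 (0.34, FDR 0.172) and without HF2 (0.30, edgeR FDR 0.0761). The same held without MF1 (0.32, edgeR FDR 0.0557) and without library in the design (0.35, edgeR FDR 0.0671). In CA3 nuclei the same member had 9.12 CPM.

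At some loci the members lay in a gene other than that of the nearest start. Trp53i11 was the nearest start of 4 members, but 3 of them lay in introns of Tspan18, a tetraspanin. The most open of these (chr2:93227548-93228350, sequence above) had 16.2, 26.3, 18.1 and 16 CPM in granule libraries and was more open still in astrocytes (40.7 CPM). Tspan18 RNA was 96.3 ± 8.56 RNA CPM in granule and 6.94 ± 3.01 in CA1 nuclei, a log2 fold change of 3.7 (SE 0.13, edgeR FDR 1.93e-14). Trp53i11 RNA rose by 1.89 (SE 0.29, edgeR FDR 1.88e-05). Ttc23l was listed with 6 UMIs in all granule nuclei and 0 in CA1 nuclei and could not be tested, and 2 of its 4 members lay in Rai14, which encodes an actin-binding protein. One of those (chr15:10608812-10609714, sequence above) had 24.8, 23.6, 28.6 and 24 CPM in granule libraries and 0.310 to 1.99 CPM in CA1 libraries. Rai14 RNA was 12.7 ± 1.48 against 4.51 ± 2.43 RNA CPM (log2 1.36, SE 0.22, edgeR FDR 4.02e-05). Mamdc2 had 5 members and too little RNA to test, at 1.88 ± 0.658 and 2.85 ± 1.57 RNA CPM. Tspan18, Rai14 and Cerkl were named after their values were seen.

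Of the other genes with 4 members, 3 had a large RNA difference. Trpm3, a cation channel gene, had 1340.0 to 1915 RNA CPM in granule and 122 to 255 in CA1 libraries (log2 2.91, SE 0.09, edgeR FDR 1.25e-15). Ptchd4, which encodes a patched-domain protein, rose by 2.79 (SE 0.11, edgeR FDR 1.08e-13) and the receptor phosphatase gene Ptpro by 2.39 (SE 0.11, edgeR FDR 7.27e-13). Rab11fip2, an effector of RAB11 in recycling endosomes, stood at 111 ± 9.20 and 104 ± 9.10 RNA CPM (edgeR FDR 0.615).

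The RNA of genes at members was tested across all 13096 genes that passed the low count filter, since the members were chosen from ATAC and not RNA. Gate genes were left out of the counts. Of 1154 genes with a member, 480 (41.6%) were higher in granule and 178 (15.4%) higher in CA1 nuclei by edgeR's quasi-likelihood test (FDR under 0.05 and at least 1.2-fold). Over all tested genes, 19.4% were higher in granule and 17.9% higher in CA1. The median log2 fold change was 0.21 for genes with a member and 0.02 for all genes. By number of members, of 945 genes with 1 member, 37.2% were higher in granule, of 170 with 2 members 55.9%, and of 39 with 3 or more 84.6%. Genes with members also had more shared regions assigned to them (median 11 against 3), and among tested genes with 16 or more shared regions 165 of 332 with a member (49.7%) and 179 of 750 without one (23.9%) were higher in granule. Assigning members only to starts within 10 kb gave 105 higher and 27 lower of 213 genes. Assigning them to the gene whose body or 2 kb before its start they lay in gave 402 higher and 190 lower of 925. There the share higher in CA1 was above the 17.9% of all genes, not below it as in the main assignment. The higher glial marker RNA of granule nuclei, given above, was present in the same sums, and leaving out nuclei with 2 or more UMIs of the 7 markers gave 452 genes higher and 171 lower of 1079. That was 41.9% and 15.8%, beside 19.75% and 18.96% of all genes. Leaving out nuclei with 2 or more genes of any full glial list gave 215 higher and 54 lower of 566, or 38.0% and 9.54%, beside 16.1% and 13.7% of all genes.

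**Figure D3:**
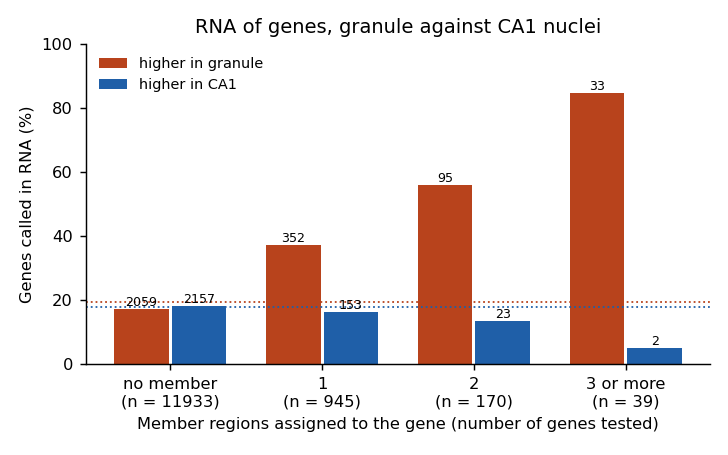
Bars give the share of tested genes (%) that were called higher in granule or higher in CA1 nuclei, by the number of members assigned to the gene; numbers above bars count genes and dotted lines mark all tested genes (19.4% and 17.9%). The share higher in granule was 17.3% for genes without a member and 84.6% for genes with 3 or more.

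Granule marker genes often had members. Of the 25 genes of the granule list, 14 (56.0%) had at least 1, compared with 9.92% of 17784 genes that were nearest to some shared region. The list was chosen with results of these data known, so this share describes the list and is no independent support. The comparison with 9.92% was also not matched for the number of shared regions per gene. Among tested genes with 16 or more shared regions, 332 had a member and 750 had none. All 14 were higher in granule RNA, and so were the 11 without a member. Those 11 included C1ql2, C1ql3 and Calb1, whose proteins are a synapse organizer, its relative and a calcium buffer. Stxbp6, which encodes a SNARE regulator, had 3 members and rose from 36.5 ± 6.08 to 525 ± 41.3 RNA CPM (log2 3.71, SE 0.08, edgeR FDR 1.98e-17). The semaphorin gene Sema5a had 3 members and the cation channel gene Trpc6 3, including the Trpc6 promoter. Sema5a RNA rose by 3.92 (SE 0.07, edgeR FDR 1.80e-18) and Trpc6 RNA by 4.15 (SE 0.12, edgeR FDR 8.72e-16). Dsp, which encodes the desmosomal protein desmoplakin, had a promoter member (chr13:38150980-38151917) with 8.90 to 11.6 CPM in granule libraries, and its RNA was 37.4 ± 8.08 against 1.61 ± 0.708 RNA CPM (log2 4.44, SE 0.21, edgeR FDR 1.43e-12). Pdzd2 had 3 members, of which an intronic one (chr15:12728048-12728973) had 23.8 to 27.5 CPM in granule libraries, and Cdh9, a cadherin of the mossy fibre synapse, had 2. Glis3 (log2 4.02), Maml2 (3.45), Rfx3 (2.59), Tdo2 (2.67), Jun (1.48), Ahcyl2 (1.84) and Marcks (0.74) had 1 member each, and Trhr (2.91) had 2. All of these RNA values had an edgeR FDR of 1.70e-05 or lower.

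Transcription factor genes showed both directions. Of 36 factors in a list of neuronal regulators, 15 (41.7%) had a member, beside 9.92% of 17784 genes, again not matched for shared regions. This list too was chosen with results of these data known. Of the 13 factors with a member tested outside the gate genes, 11 were higher and 2 lower in granule RNA, beside 19.4% and 17.9% of all genes. Among 18 tested factors without a member, 8 were higher and 7 lower. Mef2c, an activity-dependent factor, rose by 1.71 (SE 0.08, edgeR FDR 4.33e-13), the hippocampal zinc finger gene Zbtb20 by 1.25 (SE 0.06, edgeR FDR 1.10e-12), and Nfia, 1 of 3 nuclear factor I genes with members, by 1.16 (SE 0.06, edgeR FDR 1.13e-12). Nfib with 3 members rose by 0.62 and Nfix with 2 by 0.59. A Nfix intronic member (chr8:84789605-84790512) was the most open member of the list, with 25.4, 29.4, 32.4 and 30.6 CPM in granule libraries, 27.6 CPM in astrocytes and 17.3 CPM in progenitors of oligodendrocytes (OPC). Emx1, Tbr1 and Neurod2 rose by 0.97, 1.07 and 0.53. The 2 that were lower both had 1 member. Neurod6, a factor of pyramidal neurons, had 53.4 ± 12.4 RNA CPM in granule and 141 ± 27.2 in CA1 nuclei (log2 -1.55, SE 0.07, edgeR FDR 8.22e-13), and Etv1, an ETS factor, had 61.9 ± 5.09 and 177 ± 15.0 (log2 -1.64, SE 0.07, edgeR FDR 5.76e-13). The Neurod6 member lay 51.8 kb away, and the Etv1 member lay in an intron. Zic1, whose promoter was a member (chr9:91365463-91366291), had 1.16 ± 0.662 and 0.954 ± 0.484 RNA CPM and was not tested. That promoter had 14.6 CPM in astrocytes against 5.39 CPM in granule nuclei.

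The 10 largest RNA rises at members ranged over genes of several kinds. Synpr, which encodes the synaptic vesicle protein synaptoporin of mossy fibres, had 3 members and 655 ± 39.9 against 37 ± 8.07 RNA CPM (log2 4.01, SE 0.08, edgeR FDR 9.63e-18). The interleukin receptor gene Il1r1 had 3 members and rose by 4.08 (SE 0.21, edgeR FDR 3.78e-12), and Npnt, which encodes the matrix protein nephronectin, rose by 4.05 (SE 0.18, edgeR FDR 5.58e-13). Onecut1, a homeobox gene, rested on 105 UMIs in granule and 1 in CA1 nuclei, a ratio of RNA CPM of 80.5 with an exact 95% counting interval of 14.1 to 3210. Stc2, a stanniocalcin gene, rested on 76 and 3 UMIs (ratio 19.4, interval 6.40 to 96.3). The remaining 5 of the 10 largest were Dsp, Trpc6, Glis3, Sema5a and Stxbp6, given above. The largest falls at members were Inhbb (log2 -2.63), Fgf7 (-2.61), Htr1b (-2.36), Tmem132d (-2.25) and Cdh22 (-2.21), with 1 member each and an edgeR FDR of 1.02e-05 or lower. Inhbb encodes an activin subunit, Fgf7 a growth factor and Htr1b a serotonin receptor. Tmem132d had 36.9 ± 8.42 RNA CPM in granule and 163 ± 23.8 in CA1 nuclei, the reverse of the order of its member's accessibility.

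The accessibility of members in 6 other types of nuclei was set against that in granule nuclei. CPM relative to granule nuclei had a median of 34.9% in CA3 pyramidal, 25.9% in inhibitory, 27.2% in oligodendrocyte, 20.1% in astrocyte, 14.0% in OPC and 7.75% in microglial nuclei. Over all shared regions the same values were 105%, 96.8%, 70.6%, 49.5%, 54.3% and 21.1%. Because granule CPM chose the members, the lower values are in part set by that choice. CA3 neurons, the targets of mossy fibres, reached at least 50% of the granule CPM at 29.3% of members, and inhibitory neurons at 19.8%, against 89.0% and 74.1% of all shared regions. Members that stood apart from all 6 other types by the same measure, at most 25% of granule CPM in each, numbered 374 (8.78%, against 0.437% of all shared regions). Oligodendrocyte CPM was at least granule CPM at 158 members, and 104 of those (65.8%) met the rule again without nuclei that held glial UMIs, compared with 90.8% of the other 4100. Glis3 gave an example of a member that was more open elsewhere, since its intronic member (chr19:28635840-28636762) had 3.12 to 5.90 CPM in granule libraries and 19.3 CPM in astrocytes.

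**Figure D4:**
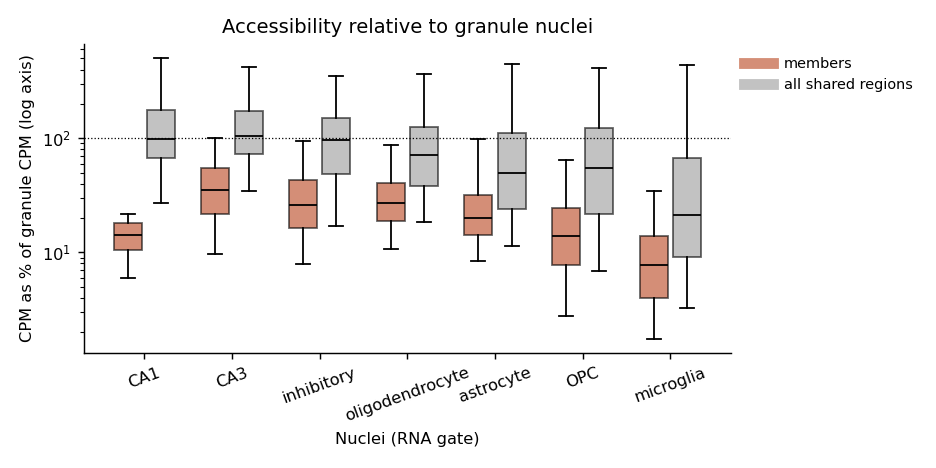
Boxes give CPM as a percent of granule CPM (log axis) in 7 groups of nuclei for the 4258 members and all 154785 shared regions; lines are medians, boxes quartiles, whiskers the 5th and 95th percentiles, and the dotted line marks 100%. Outside CA1, member medians run from 7.75% in microglia to 34.9% in CA3, and CA1 was used to choose the members.

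Granule neurons differed in maturity, and this split was not used to choose members. The more numerous mature nuclei did weigh more in the pooled granule cuts that chose them. Immature granule nuclei (75, 52, 74 and 73 in MF1, MF2, HF1 and HF2) had at least 2 of Dcx, Igfbpl1, Sox11, Calb2, Draxin and Nhlh1 and at most 1 of the mature genes. Mature nuclei (185, 116, 180 and 165) had at least 2 of Dsp, C1ql2, Calb1, Trhr, Lct and Tdo2 and at most 1 of the immature genes. Members held a like share of all cuts in both stages, 2.58 to 2.97% of cuts in immature and 2.57 to 2.88% in mature libraries. Single members, however, differed. Of 3184 members that passed the filter on low counts, 466 (14.6%) were higher in immature and 336 (10.6%) higher in mature nuclei by edgeR's quasi-likelihood test, beside 5.04% and 4.38% of all 65035 regions tested. Without the filter, 463 and 440 of all 4258 members were called (10.9% and 10.3%), beside 1.74% and 2.71% of all regions. The number higher in mature nuclei fell to 166 without HF1, 175 without HF2, 181 without MF1 and 177 in DESeq2, and the number higher in immature nuclei fell to 309 without HF1. Those mature counts were 4.94%, 5.53%, 5.602% and 5.56% of members tested, beside 1.83%, 2.02%, 2.16% and 2.01% of all regions. The immature count was 9.19%, beside 2.61%. Summed glial markers were 139 to 271 RNA CPM in immature and 120 to 206 in mature libraries, with 7 of 7 higher in immature nuclei by their means, although the sums in HF2 were 139 and 140. Without nuclei that held 2 or more UMIs of the markers, 297 and 168 of 2718 members were called (10.9% and 6.18%), beside 3.496% and 2.854% of all regions.

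**Figure D5:**
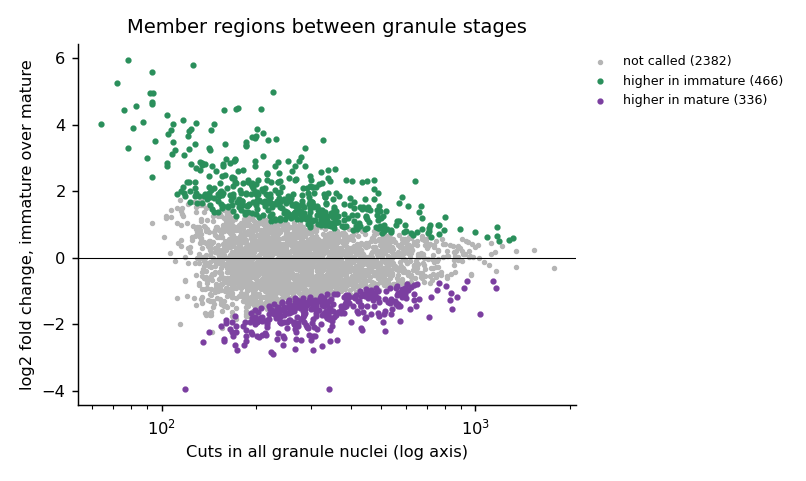
Each point is 1 of 3184 tested members, with its cuts in all granule nuclei (log axis) and its log2 fold change of immature over mature nuclei. Called members number 466 above 0 and 336 below, with the Tiam2 member at 5.0 and the Naa35 member at -3.93.

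Prox1 itself had stage-dependent members. The pair of intergenic members 67.6 and 69.4 kb upstream (chr1:190237864-190238832 and chr1:190239638-190240636) was higher in immature nuclei, by 2.12 (SE 0.34, edgeR FDR 2.53e-05) and 2.31 (SE 0.34, edgeR FDR 5.26e-06) on the log2 scale. The second had 18.9, 18.5, 21.8 and 14.1 CPM in immature and 2.68, 3.73, 2.30 and 7.16 CPM in mature libraries, so the stages did not overlap. The Prox1 promoter member was level between stages (log2 0.02, SE 0.19, edgeR FDR 0.962), and so was Prox1 RNA (log2 0.08, SE 0.08, edgeR FDR 0.552), a gate gene. At Neurod1, the intronic member 22.7 kb away (chr2:79433567-79434614) was higher in immature nuclei by 2.28 (SE 0.49, edgeR FDR 0.00165), together with Neurod1 RNA (log2 0.76, SE 0.17, edgeR FDR 0.00252). A Ptpro intronic member (chr6:137286110-137287045) and Ptpro RNA were both higher in immature nuclei, by 1.68 (SE 0.27, edgeR FDR 2.43e-05) and 1.32 (SE 0.08, edgeR FDR 1.47e-10). Members of Nfib, Emx1 and Zic1 were higher in immature nuclei by 1.47, 1.64 and 2.51, with an edgeR FDR of 0.00114 or lower.

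Other members were higher in mature nuclei. The Pdzd2 intronic member had 13.0, 13.5, 6.23 and 8.49 CPM in immature and 31.7, 35.4, 32.8 and 36.2 CPM in mature libraries (log2 -1.69, SE 0.22, edgeR FDR 5.22e-07), and Pdzd2 RNA changed by -1.39 (SE 0.10, edgeR FDR 2.22e-09). The Tdo2 promoter member (chr3:81975421-81976347) changed by -1.54 (SE 0.29, edgeR FDR 0.000326), where Tdo2 was among the genes that defined the mature gate. A Ptchd4 intronic member (chr17:42358167-42359132) and Ptchd4 RNA changed by -1.80 (SE 0.38, edgeR FDR 0.00137) and -1.14 (SE 0.09, edgeR FDR 3.73e-09). In the opposite direction, an intergenic member 83.5 kb upstream of the mature gene Trhr (chr15:44112165-44113079) had 9.25 to 15.6 CPM in immature and 0.217 to 0.975 CPM in mature libraries (log2 4.50, SE 0.51, edgeR FDR 4.35e-08), whereas Trhr RNA, a gene of the mature gate, changed by -2.71. That member had 7.68 CPM in astrocytes.

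The 5 largest rises in immature nuclei lay nearest to Dhrs3, Olfr319, Mex3b, Dtwd2 and Tiam2. The first 4 had 43 to 62 cuts in immature and 1 or 2 in mature nuclei, and their ratios per total cuts, 47.9 to 98.1, had exact 95% counting intervals that started at 12.5 to 18.3. These intervals took cuts as independent, although cuts mostly came in pairs, and are therefore too narrow. The Tiam2 intronic member (chr17:3362951-3363857), in a gene for an activator of RAC1, had 19.5, 12.1, 20.3 and 18.4 CPM in immature and 1.22, 0.311, 0.459 and 0.217 CPM in mature libraries. Its log2 fold change was 5.0 (SE 0.45, edgeR FDR 2.64e-10). The 5 largest falls were nearest to Elmod1, Naa35, Lrfn5, Nfxl1 and Crbn. The Naa35 intronic member (chr13:59615321-59616222) had 0, 1.42, 1.56 and 0 CPM in immature and 10.2, 11.8, 10.3 and 13.9 CPM in mature libraries (log2 -3.93, SE 0.56, edgeR FDR 3.17e-06). The other 4 had 2 to 7 cuts in immature and 79 to 126 in mature nuclei, and the member near Crbn missed the threshold without HF2 (edgeR FDR 0.0839).

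RNA of the genes at stage-dependent members was set beside them. Over 977 tested genes with a member, outside gate and stage genes, RNA was higher in immature nuclei for 135 (13.8%) and higher in mature for 216 (22.1%), beside 9.89% and 9% of all 10162 genes. Of 112 genes at members higher in immature nuclei, 30 (26.8%) had more RNA in immature and 13 (11.6%) more in mature nuclei. Of 125 genes at members higher in mature nuclei, 38 (30.4%) had more RNA in mature and 7 (5.6%) more in immature nuclei. Members higher in immature nuclei were also more open in other types, with a median of 44.8% of granule CPM in oligodendrocytes and 35.4% in astrocytes, compared with 18.9% and 14.0% for members higher in mature nuclei. In inhibitory neurons the medians were 34.0% and 18.3%, and in CA3 neurons 32.6% and 27.5%. The part of glial DNA in those values was not tested. CAGATG occurred in 60.1% of the 466 members higher in immature nuclei and in 44.0% of the 336 higher in mature nuclei. The pattern searched as MEF2 occurred in 4.51% and 12.5%. Over all regions called between stages these shares were 49.8% and 49.5% for CAGATG, and 4.73% and 10.1% for the MEF2 pattern. None of these shares was matched for position or GC. Median GC was 46.3% and 43.8% in the called members, and 50.8% and 47% in all called regions. The MEF2 pattern can match sequences that are not MEF2 sites, so its shares describe the pattern and not MEF2 sites.

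The diets were compared in granule nuclei, since the study asked how FA in the maternal diet affected the hippocampus of the offspring. All 4258 members were tested among 141362 regions, and edgeR's quasi-likelihood test called 0 members between HF and MF, beside 0% of all regions. At an unadjusted p under 0.05 there were 184 members (4.32%), beside 5913 regions (4.18%), and DESeq2 gave 0 called and 39 unadjusted members (0.916%), beside 1364 regions (0.965%). With 2 libraries per diet, a count of 0 does not show that the members did not differ. The rule used these granule cuts and asked for the ratio to CA1 in each diet, so a region open in granule nuclei of 1 diet alone could not become a member, and the counts over members are limited by that choice. The smallest edgeR FDR over members was 1.0. Members were lower in HF in 2602 of 4258 cases (61.1%, against 49.3% of all regions), with a median log2 difference of -0.08 against 0.01. That median was -0.14 without MF1, -0.02 without MF2, -0.06 without HF1 and -0.13 without HF2, and -0.04 without nuclei that held 2 or more UMIs of the 7 glial markers. It turned to 0.02 over 509 members, against -0.01 over all regions, without nuclei that held 2 or more genes of any full glial list. The share of granule cuts that fell in members was 2.75% and 2.94% in the MF and 2.59% and 2.77% in the HF libraries, so the diets overlapped.

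The 5 members with the smallest diet p were all intergenic and all lower in HF, with log2 differences of -0.95 to -1.47 and an edgeR FDR of 1.0 each. The one with the largest difference, 390 kb from the start of Dcc, had 6.19 and 4.61 CPM in MF and 1.89 and 1.96 CPM in HF granule libraries. A member nearest to Hnrnpa3 (chr2:75620936-75621878) had 12.9 and 10.7 against 6.82 and 4.80 CPM, and one nearest to Tgm3 (chr2:130000190-130001140) had 9.72 and 11.0 against 4.92 and 5.69 CPM. The others were nearest to Stim2 and Cypt12, 716 and 664 kb away. In RNA, 0 of 1221 genes with a member were called between diets in granule nuclei by edgeR, beside 0% of all 13970 genes, with 49 (4.01%) at an unadjusted p under 0.05, beside 344 of all genes (2.46%), and 0 called by DESeq2. DESeq2 gave 13 (1.06%) unadjusted, beside 88 of all genes (0.630%). Other fits made calls, with 7 genes at members higher in HF with the replicate number as a block, 5 higher and 2 lower without HF1, and 1 higher without MF2. With the block this was 0.573% of genes at members, beside 0.315% of all genes. Without HF1 it was 0.402% and 0.161%, beside 0.187% and 0.277%, and without MF2 0.0794%, beside 0.0616%. The 12 Prox1 members had log2 diet differences of -0.72 to 0.16.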

How the data were processed

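Nuclei of mouse hippocampus were profiled in 4 libraries, 2 per diet, grouped by the labels. Per the labels, the authors made the deposited counts with Cell Ranger ARC 2.0.1 on mm10, as UMI counts per gene and transposition cut counts per peak and nucleus. Of 14297 deposited nuclei, 11518 were retained. A retained nucleus had between 500 and 7000 genes, a mitochondrial share below 2% and between 1000 and 70000 ATAC counts. No doublet caller was run, and each nucleus in more than 1 gate outside the granule and CA1 gates was left out. Merging the peaks gave 253748 regions, and 154785 (61.0%) of them overlapped a peak from every library. Total cuts per library were 8468431 to 11249890 in granule nuclei and 1405884 to 2121249 in immature nuclei, and counting intervals cover counting error only. Of the nonzero ATAC counts per peak and nucleus, 81.1 to 83.1% were even, so the cuts of a fragment were mostly counted together. Counting intervals of cuts took each cut as independent and are too narrow for that reason. Annotation was GENCODE for GRCm38, and a member belonged to the nearest protein-coding start within 100 kb.

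Counts were summed per library and gate and tested two-sided across all features with edgeR 4.0.16 (quasi-likelihood F test, TMM, filterByExpr, Benjamini-Hochberg FDR) in R 4.3.3, with library as a block except between diets. Calls needed an FDR under 0.05 and, in RNA, a 1.2-fold difference. Gate genes stayed out of RNA counts, as did the 12 stage genes between stages. DESeq2 1.42.0, other filters and normalization, and leaving out libraries or nuclei with glial RNA were alternatives, and leaving out nuclei with 2 or more UMIs over 7 glial genes (Mog, Mag, Aqp4, Gja1, Pdgfra, Csf1r and Cx3cr1) was chosen after seeing the data. The tests were checked on simulated counts. Named were the 10 genes with most members, members of the granule and transcription factor lists, the 10 largest RNA rises and 5 largest falls, the 5 smallest diet p, the 5 largest stage differences each way and the 5 regions on each side of the threshold. The members and lists were chosen with earlier results of these data known. Python 3.11.15, pandas 2.3.3 and SciPy 1.17.1 were used.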

Additional observations from a re-analysis of the deposited data

How the results depend on the processing

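The number of members was 4258 and moved to 1867 without the filter on nuclei. It was 7574 at a ratio of 3, 1692 at a ratio of 6 and 3760 to 4073 with each library left out. It was 222, of which 113 were members, without nuclei that held 2 or more genes of any full glial marker list (here, held glial markers). The floor on granule cuts was kept there although few nuclei remained. That count was therefore limited by depth and does not measure dependence on glial RNA. Genes at members higher in granule RNA were 480. They were 215 without nuclei that held glial markers and 105 with starts within 10 kb, and those higher in CA1 were 178, 54 and 27. As shares of genes at members tested, these were 41.6%, 38.0% and 49.3% in granule, and 15.4%, 9.54% and 12.7% in CA1. Over all genes tested, 19.4% were higher in granule and 17.9% in CA1, or 16.1% and 13.7% without nuclei that held glial markers. Members higher in immature nuclei were 466, with 297 without nuclei that held glial UMIs, 0 of 4 tested without those that held glial markers, and 309 to 425 with each library left out. Members higher in mature nuclei were 336 (10.6%, beside 4.38%), and 177 (5.56%, beside 2.01%) in DESeq2. They were 168 (6.18%, beside 2.85%) and 0 under the same glial alternatives. With each library left out they were 166 to 276 (4.94 to 7.85%, beside 1.83 to 2.95%). In stage RNA, 135 genes were higher in immature nuclei and 87 in DESeq2, 67 without library in the design and 32 without nuclei that held glial markers, and 216 were higher in mature nuclei and 136, 106 and 45. The immature shares were 13.8%, 8.90%, 6.86% and 13.9%, beside 9.89%, 4.84%, 4.86% and 12.8% of all genes, and the mature shares 22.1%, 13.9%, 10.8% and 19.6%, beside 9%, 4.67%, 3.62% and 14.7%. The cause was not tested for DESeq2 and the library term.

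The labels do not pair the libraries of the diets. With the replicate number as a block, 0 members were called in ATAC and 7 genes at members were higher in HF in RNA, namely Clic4, Grm8, Creb5, Sgcd, Cdh6, Efna5 and Kank1, against 0 without it. Those 7 were 0.573% of genes at members, beside 0.315% of all genes. Same-numbered libraries deviated with a correlation across features of 0.0146 in ATAC and 0.200 in RNA. With 2 libraries per diet the deviations within a diet mirror each other, so each correlation rests on 1 comparison. With each library left out, 0 to 5 genes were higher in HF (5 without HF1, 1 without MF2) and 0 to 2 lower (2 without HF1). Among named genes and regions, 548 results kept their direction and side of the threshold, and 5 lost the call, of Paqr3 RNA 4 times and of the member near Crbn once. In DESeq2 and without library in the design, Paqr3 RNA stood at 0.34 and 0.35 on the log2 scale.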
